A study of Mus musculus with 8 samples.

Results

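The genes described here were Ifnb1, which encodes interferon beta, the interferon receptor chains Ifnar1, Ifnar2, Ifngr1 and Ifngr2, and the receptor-bound kinases Jak1, Jak2 and Tyk2. They were taken by name from a table of 23366 genes, in which all 8 were found. RNA-seq had been done on bone marrow-derived macrophages of C57BL/6 background at passage 1, kept without serum for 24 h. The groups were the Lsd1SA/SA knock-in (KI) with lipopolysaccharide (LPS) for 2 h, wild type with LPS for 2 h, the KI left untreated and wild type left untreated, with 2 libraries each. The knock-in changes LSD1, a histone demethylase encoded by Kdm1a, to a form that the series description calls defective in phosphorylation, and LPS is the endotoxin of Gram-negative bacteria that macrophages sense through TLR4. The label dose of LPS is 1 mg/ml. No age or sex is given, and the labels are silent on whether the replicates of a group were separate cultures or animals. The p-values therefore cover the spread of these libraries only, and that spread may be technical.

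Interferon beta is a secreted cytokine that macrophages make soon after TLR4, the adaptor TICAM1 (TRIF) and the kinase TBK1 activate IRF3, together with NF-kB. It binds a receptor of IFNAR1 and IFNAR2, to which TYK2 and JAK1 are bound, and these kinases phosphorylate STAT proteins such as STAT2, which with IRF9 switch on interferon-responsive genes. Interferon gamma, made mostly by T and NK cells, binds IFNGR1 and IFNGR2, which carry JAK1 and JAK2. Ifnb1 is therefore the ligand gene, the receptor chains and kinases are shared signalling parts, and the kinases also serve many other cytokine receptors.

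The promoter of the ligand gene Ifnb1 is shown with those of both interferon gamma receptor chains, whose transcripts responded differently, and of Jak2, the kinase gene with the largest response. All 8 members matched a RefSeq promoter on GRCm38.p6, another build than the mm9 used for the reads. Each line gives the 250 bases before the annotated start, 5′ to 3′ on the gene's own strand, and capitals mark the motif matches found by searching both strands.
Ifnb1, chr4:88522795-88523044, minus strand: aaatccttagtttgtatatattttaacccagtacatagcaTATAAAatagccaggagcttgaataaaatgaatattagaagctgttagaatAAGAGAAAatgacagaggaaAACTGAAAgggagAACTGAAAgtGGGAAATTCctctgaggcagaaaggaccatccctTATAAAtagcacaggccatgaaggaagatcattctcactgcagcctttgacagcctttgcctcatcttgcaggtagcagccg
Ifngr2, chr16:91546809-91547058, plus strand: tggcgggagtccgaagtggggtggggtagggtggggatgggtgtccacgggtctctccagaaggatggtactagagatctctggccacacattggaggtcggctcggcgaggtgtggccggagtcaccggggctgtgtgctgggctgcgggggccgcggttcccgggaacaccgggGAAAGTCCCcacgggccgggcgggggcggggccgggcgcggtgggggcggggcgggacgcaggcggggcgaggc
Ifngr1, chr10:19591699-19591948, plus strand: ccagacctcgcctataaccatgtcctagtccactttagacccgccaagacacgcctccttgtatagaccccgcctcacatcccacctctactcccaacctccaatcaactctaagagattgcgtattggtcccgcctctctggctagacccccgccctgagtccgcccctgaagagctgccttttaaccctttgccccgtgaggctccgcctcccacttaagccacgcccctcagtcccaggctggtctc
Jak2, chr19:29251553-29251802, plus strand: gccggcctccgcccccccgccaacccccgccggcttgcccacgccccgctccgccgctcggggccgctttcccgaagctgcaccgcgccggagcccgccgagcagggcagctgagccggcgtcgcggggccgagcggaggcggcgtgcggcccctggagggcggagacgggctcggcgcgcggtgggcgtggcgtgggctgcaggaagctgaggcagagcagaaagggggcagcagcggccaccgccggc
In Ifnb1, a kappa B match (GGGANNTTC, bound by NF-kB factors) lay at positions -116 to -108, counted from the start. Before it were 3 matches to AANNGAAA, the core that interferon regulatory factors bind, the nearest at -126 to -119. That motif was added after this promoter had been read. TATAAA was found at -210 to -205 and at -82 to -77. In 32544 RefSeq promoter windows of 300 bases (250 before and 50 after a start), the kappa B letters were in 3.94%, AANNGAAA in 23.9% and TATAAA in 13.6%. A kappa B match together with at least 2 AANNGAAA matches was in 82 of those windows (0.252%). This combination was also set after the Ifnb1 promoter had been read, so its frequency cannot show that the promoter is unusual.

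Ifngr2 also held the kappa B letters, on the opposite strand at -74 to -66, written here as GAAAGTCCC. In Jak2, Ifngr1 and Tyk2, no match was found to any of the searched letters, which besides those above were GAAANNGAA (interferon-stimulated response element, which can overlap AANNGAAA), TGANTCA (AP-1), TTCNNNGAA (gamma-activated site) and TGACGTCA (cyclic AMP response element). TTCNNNGAA, present in 8.33% of windows, was found in Ifnar1 and Ifnar2, and TGACGTCA, present in 1.80%, in Jak1. The Ifnb1 window was 42.7% G or C with 3 CpG dinucleotides, while the other 7 ranged from 57.0% to 81.0%, Jak2 being the highest with 44 CpG. The median of all windows was 53.0% with 7 CpG. A match describes letters in a window and not a bound site.

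All 8 members lie on autosomes. Ifnar2, Ifnar1 and Ifngr2 are close neighbours on chromosome 16 in the RefSeq gene order, with Il10rb between Ifnar2 and Ifnar1. Ifnb1 and Jak1 are on chromosome 4, Tyk2 on 9, Ifngr1 on 10 and Jak2 on 19. On GRCm38, 9.46% of Ifnar2 exon bases overlap Gm21970 on the same strand and 8.07% of Tyk2 exon bases overlap 1700084C06Rik on the opposite strand, so those reads cannot be assigned with certainty.

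The libraries held 40379258 to 55595160 reads, and values are TMM-scaled CPM (reads of a gene per 1e+06 reads of the scaled library), which are not divided by gene length, so levels are compared between groups and not between genes. Kdm1a itself differed by 0.027 (log2) between untreated KI and wild type (limma adjusted p = 0.883), and a transcript level does not check a substitution. The 2 libraries labelled KI with LPS stood apart in sex-linked transcripts. Xist, expressed from the inactive X chromosome, had 0.366 and 0.212 CPM in KI cells with LPS, against 387.6 to 436.8 in wild type with LPS, 315 to 364 in untreated KI cells and 389 to 413 in untreated wild type. The Y-linked Ddx3y had 27.3 and 27.4 CPM in KI cells with LPS and at most 0.0503 in any other library. The KI libraries with LPS thus carry the transcripts of male cells and the other 6 those of female cells, so in every comparison that uses them the label cannot be told apart from the sex or source of the cells. Macrophage markers were read in all libraries, with a summed level for 7 genes of 11835 to 12468 CPM in KI cells with LPS, 15323 to 15735 in wild type with LPS, 13070 to 13802 in untreated KI cells and 13173 to 13272 in untreated wild type. Between genotypes with LPS, 2 of the 7 were called higher in the KI and 5 lower (4 and 3 under quantile normalization). Of all tested genes, 38.5% were higher and 36.8% lower. With LPS, 1 marker rose and 4 fell in KI cells, and 3 rose and 2 fell in wild type. Fcgr1 had means of 912.5 CPM in KI cells with LPS and 257.0 in wild type with LPS. The part of the macrophage markers was not tested. The 6 fibroblast markers summed to 52.3 to 52.8 CPM in KI cells with LPS, 10.5 to 11.3 in wild type with LPS, 15.1 to 16.1 in untreated KI cells and 12.3 to 13.5 in untreated wild type. Of these, Lum was at 0 in both untreated groups, and Col1a1, Col1a2 and Col3a1 rose with LPS in KI cells. Dcn, the last of the 4 tested markers, also rose there. It passed the filter on low values (1 CPM or above in 2 or more libraries) only through KI cells with LPS. Its rise thus follows from the filter. The part of the fibroblast markers in the results below was not tested. Neutrophil markers (6 genes) summed to 436 to 448 CPM in KI cells with LPS, 734 to 755 in wild type with LPS and 340 to 347 in each untreated group. With LPS 5 of these 6 rose in KI cells and 5 in wild type, and their part was not tested either. The 6 markers of plasmacytoid dendritic cells, a major source of type I interferon, summed to 55.3 to 57.7 CPM in KI cells with LPS, 68.0 to 73.3 in wild type with LPS, 61.5 to 64.1 in untreated KI cells and 61.8 to 66.5 in untreated wild type. Nearly all of this was Tcf4, Siglech was at 0 in both LPS groups and Klk1 was at 0 in all libraries. Of the 2 tested markers, Tcf4 was called lower in KI than in wild-type cells with LPS (-0.30), as Ifnb1 was. Ccr9 had 0.309 and 0.247 CPM in KI cells with LPS and 1.21 and 1.47 in wild type with LPS. It was lower in the KI with LPS (-0.87) and higher with LPS in wild type (0.55). Ccr9 passed the filter on low values only through wild type with LPS. Its differences with that group thus follow from the filter and are given as a description. The untested Bcl11a went the other way, with a mean of 0.447 CPM in KI cells with LPS and 0.343 in wild type with LPS. Its libraries overlapped between these groups, and its mean in untreated wild type was 0.630. The untested Pacsin1 had means of 0.0529 CPM in KI cells with LPS, 0.0829 in wild type with LPS and 0.0974 in untreated wild type. The part of these markers in the Ifnb1 result was not tested. Markers of T and NK cells and of B cells summed to at most 3.12 CPM in any library.

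**Figure D1:**
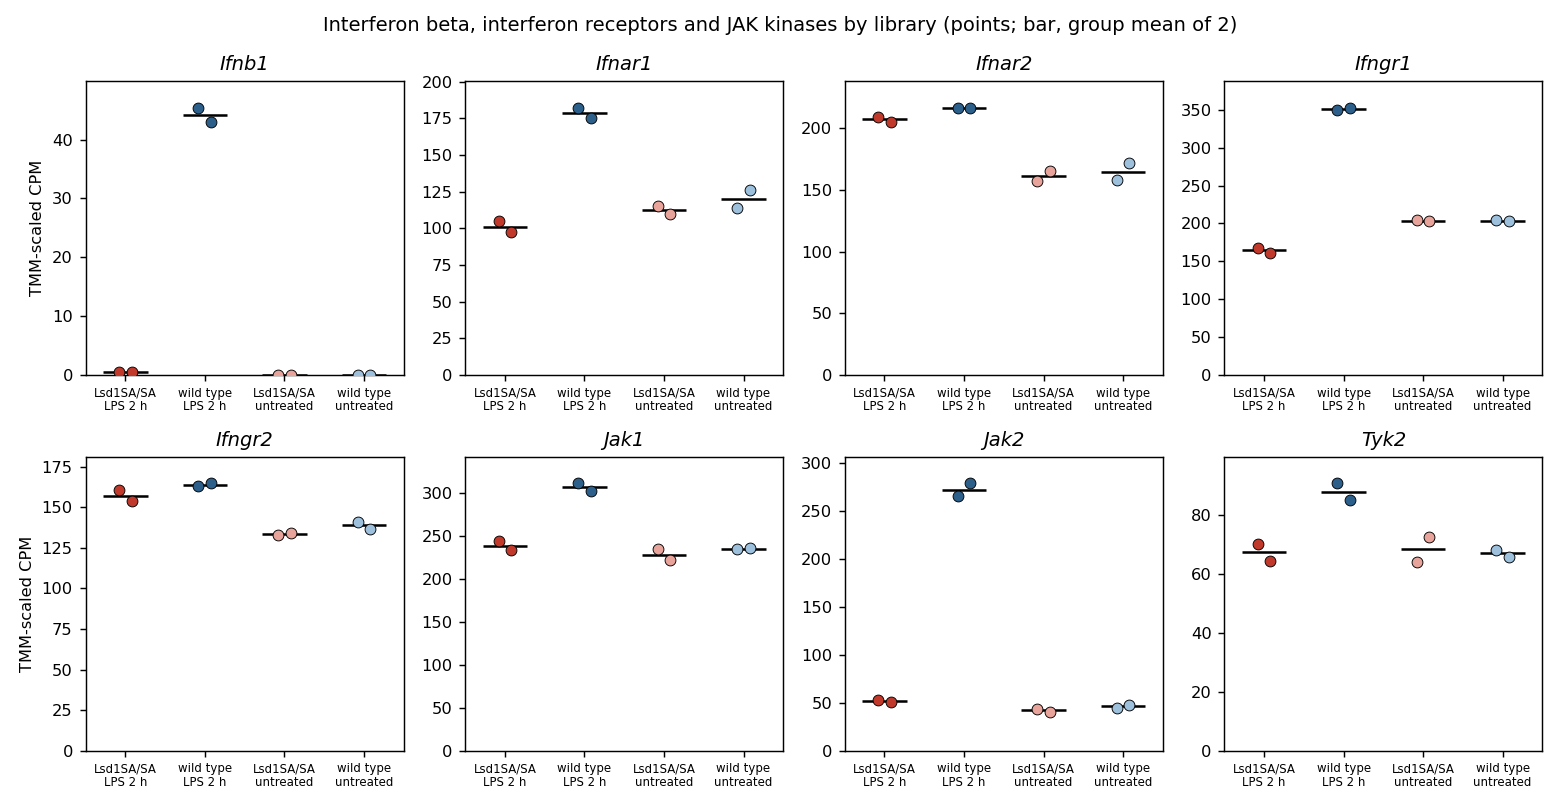
TMM-scaled CPM of each member (vertical axes, linear, from 0) in the 8 libraries, with points for libraries and bars for group means of 2. Wild type with LPS stands above the other groups for Ifnb1, Ifnar1, Ifngr1, Jak1, Jak2 and Tyk2, while for Ifnar2 and Ifngr2 both LPS groups stand above both untreated groups.

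Ifnb1 was induced strongly in wild-type cells and weakly in KI cells. It had 0.463 and 0.565 CPM in the KI libraries with LPS (24 and 32 reads), 45.4 and 43.0 CPM in wild type with LPS (1807 and 1902 reads), 0.0459 and 0 in untreated KI cells (2 and 0 reads) and 0 in both untreated wild-type libraries. The groups with LPS did not overlap with each other or with the untreated ones. The wild-type level with LPS was at least 707-fold above untreated wild type, taking a floor of 3 reads per library for a count of 0. In the KI, 56 reads with LPS against 2 without gave a ratio of 25.2 (95% counting interval 6.66 to 213). On the log2(CPM + 1) scale, which understates changes of low genes, Ifnb1 rose by 0.56 with LPS in KI cells (limma adjusted p = 0.000932) and by 5.50 in wild type. The KI change was 4.48 by edgeR on recovered reads (adjusted p = 9.90e-07). With LPS, the group means were 0.514 ± 0.0719 CPM in KI cells and 44.2 ± 1.70 CPM in wild type (SD, n = 2 each), 86.0-fold lower in the KI. By pooled reads the KI was 85.5-fold lower (95% counting interval 65.7 to 113). Ifnb1 passed the filter on low values only through the wild-type libraries with LPS, so a difference involving that group follows from the filter. Such a difference is given as a description. In these bulk samples, fewer cells making a transcript and less transcript per cell cannot be told apart.

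Of 20 further interferon genes (alpha subtypes, Ifng and others), 18 were in the table and none reached the filter. They summed to at most 6 reads in a KI library with LPS, 21 in wild type with LPS, 15 in untreated KI cells and 10 in untreated wild type. Ifna2, Ifna4 and Ifna5 had reads in wild type with LPS alone, 2 each in a single library. Ifnb1 was thus the interferon gene with the most counted reads in both LPS groups. How reads matching several genes were counted is not given, so low counts of the alpha subtypes need not mean absence.

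The genes of the type I receptor chains differed from each other in how they responded. Ifnar1, the chain that binds TYK2, had 105 and 97.4 CPM in KI cells with LPS, 182 and 175 in wild type with LPS, 115 and 110.0 in untreated KI cells and 114 and 126 in untreated wild type. Wild type with LPS was highest, the untreated groups overlapped, and both KI libraries with LPS were below every other library. Ifnar1 fell by 0.15 (log2) with LPS in KI cells (limma adjusted p = 0.0228) and rose by 0.57 in wild type (adjusted p = 3.35e-09). The fall in the KI was lost without the second KI library with LPS (-0.098, adjusted p = 0.252), without the first untreated KI library (-0.12, adjusted p = 0.164) and with no filter on low values (adjusted p = 0.0733). Its adjusted p ranged from 0.00304 to 0.252 over the alternatives. With LPS, KI cells were lower than wild type by 0.82 (limma adjusted p = 2.75e-12).

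Ifnar2, the chain that binds interferon beta with high affinity and carries JAK1, had 209 and 205 CPM in KI cells with LPS, 216 and 217 in wild type with LPS, 157 and 165 in untreated KI cells and 158 and 172 in untreated wild type. Both LPS groups stood above both untreated groups, which overlapped. Ifnar2 rose with LPS by 0.36 in KI cells (limma adjusted p = 1.30e-06) and by 0.39 in wild type (adjusted p = 2.51e-07). The genotype difference with LPS was -0.062 (95% interval -0.16 to 0.040, limma adjusted p = 0.260). Quantile normalization turned this difference round, to 0.29 (adjusted p = 2.31e-05), and removed the wild-type rise (-0.038, adjusted p = 0.520).

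The interferon gamma receptor showed the same kind of split between its chains. Ifngr1, the chain that binds interferon gamma, had 167 and 162 CPM in KI cells with LPS, 350.4 and 353 in wild type with LPS, 204 and 203 in untreated KI cells and 204 and 203 in untreated wild type. The untreated groups overlapped, wild type with LPS was above them, and KI with LPS was below them. Ifngr1 fell by 0.31 (log2) with LPS in KI cells (limma adjusted p = 3.40e-06) and rose by 0.79 in wild type (adjusted p = 1.43e-13). With LPS the group mean was 164 ± 4.12 CPM in KI cells and 352 ± 1.76 CPM in wild type (SD, n = 2 each), 2.14-fold lower in the KI. The limma difference on log2(CPM + 1) was -1.09 (adjusted p = 1.37e-16).

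Ifngr2, the chain that carries JAK2, had 161 and 154 CPM in KI cells with LPS, 163 and 165 in wild type with LPS, 133 and 134 in untreated KI cells and 141 and 137 in untreated wild type. The LPS groups were above the untreated groups, and the KI was slightly below wild type with and without LPS, with no overlap of libraries. Between genotypes, libraries did not overlap for 87.4% of tested genes with LPS and 43.9% untreated. The untreated genotype difference of Ifngr2 was -0.059 (limma adjusted p = 0.613). Ifngr2 rose with LPS by 0.24 in each genotype (limma adjusted p = 0.000198 in KI cells and 0.000146 in wild type). The genotype difference with LPS was -0.062 (95% interval -0.16 to 0.037, adjusted p = 0.244). Under quantile normalization that difference was 0.18 (adjusted p = 0.00205) and the wild-type change was -0.076 (adjusted p = 0.167).

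Jak2 responded most among the kinases. It had 53.1 and 50.7 CPM in KI cells with LPS, 266 and 279 in wild type with LPS, 43.4 and 40.7 in untreated KI cells and 44.6 and 47.6 in untreated wild type. No groups overlapped, and wild type with LPS was far above the rest. Jak2 rose by 0.30 (log2) with LPS in KI cells (limma adjusted p = 0.000107) and by 2.54 in wild type (adjusted p = 7.41e-22). The wild-type group mean was 5.91-fold higher with LPS. With LPS its mean was 51.9 ± 1.67 CPM in KI cells and 272 ± 9.56 CPM in wild type (SD, n = 2 each), 5.24-fold lower in the KI (log2 difference -2.37, adjusted p = 2.88e-21).

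Jak1, which serves both interferon receptors, had 243 and 233 CPM in KI cells with LPS, 311 and 301 in wild type with LPS, 234 and 222 in untreated KI cells and 234 and 235 in untreated wild type. Wild type with LPS stood clear of the other groups. KI with LPS overlapped with both untreated groups, and untreated KI was just below untreated wild type. The change with LPS was 0.065 (log2) in KI cells (95% interval -0.032 to 0.16, limma adjusted p = 0.247), and Jak1 rose by 0.38 in wild type (adjusted p = 1.70e-07). With LPS, KI cells were lower by 0.36 (adjusted p = 2.47e-07). Both differences depended on the scaling: under quantile normalization the wild-type change was -0.071 (adjusted p = 0.201) and the genotype difference -0.0016 (adjusted p = 0.978).

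Tyk2, the kinase bound to IFNAR1, had 70.0 and 64.4 CPM in KI cells with LPS, 90.6 and 84.8 in wild type with LPS, 64.1 and 72.4 in untreated KI cells and 68.0 and 65.7 in untreated wild type. Again only wild type with LPS stood clear of the other groups. The change with LPS was -0.021 (log2) in KI cells (95% interval -0.15 to 0.11, limma adjusted p = 0.797), and Tyk2 rose by 0.39 in wild type (adjusted p = 1.01e-05). With LPS, KI cells were lower by 0.38 (adjusted p = 7.92e-06).

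Across the members, 8 of 8 were called higher with LPS in wild type (7 of 7 receptor and kinase genes, leaving out Ifnb1), where 26.8% of the 11919 tested genes were called higher, 30.7% lower and 57.6% in either direction. The libraries with and without LPS did not overlap for 8 of 8 members and for 76.1% of tested genes. Under quantile normalization 5 of 8 were, and the wild-type change was also smaller for Ifnar1 (0.26), Ifngr1 (0.33) and Tyk2 (0.17), as was the genotype difference with LPS for Tyk2 (-0.19). Of all genes called in that comparison, 46.6% were higher, and 35.4% under quantile normalization. In the KI, 4 members were called higher with LPS (Ifnb1, Ifnar2, Ifngr2 and Jak2) and 2 lower (Ifnar1 and Ifngr1), where 28.5% of tested genes were higher, 28.3% lower and 56.7% either. The libraries did not overlap for 6 of 8 members in the KI, against 79.2% of tested genes. The median log2 change of the members was 0.15 in KI cells and 0.48 in wild type. That of all tested genes was 0.016 in KI cells and -0.032 in wild type. With Ifnb1 left out, the middle value of the 7 others was 0.065 in KI cells (Jak1) and 0.39 in wild type (Ifnar2). Between genotypes with LPS, 6 members were called lower in the KI and none higher, where 36.8% of tested genes were lower, 38.5% higher and 75.4% either. The member median of this difference was -0.60 and that of all tested genes 0.023. With Ifnb1 left out, the middle value of the 7 others was -0.38 (Tyk2). The libraries did not overlap for 8 of 8 members, and for 87.4% of tested genes. Of the 7 receptor and kinase genes alone, 5 were called lower.

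**Figure D2:**
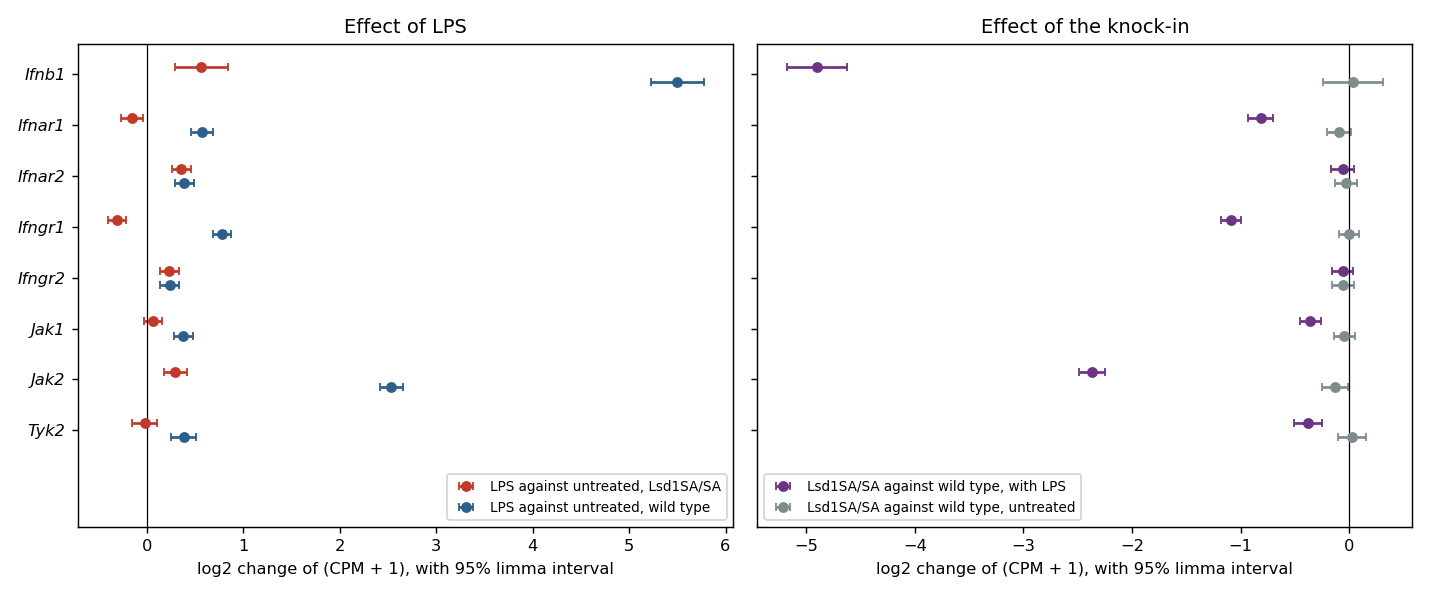
Limma log2 changes of log2(CPM + 1) for each member with 95% intervals, for LPS against untreated in each genotype (left) and for KI against wild type with LPS and untreated (right). The wild-type LPS changes of Ifnb1 (5.50) and Jak2 (2.54) are the 2 longest LPS changes, that of KI against wild type with LPS is longest for Ifnb1 (-4.90), the KI LPS changes of Ifnar1 and Ifngr1 lie below 0, and the untreated genotype differences lie near 0.

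Before LPS, no member was called different between genotypes, where 1 of 11919 tested genes was called (0.00839%; it was Myl6b, named after its value was seen). At an unadjusted p under 0.05, 1617 genes differed, edgeR called 1 and DESeq2 64. The log2 differences of the 8 members lay between -0.13 and 0.032. The lowest was that of Jak2 at -0.13 (95% interval -0.25 to -0.012, limma adjusted p = 0.322). Libraries did not overlap for 3 of 8 members (Ifngr2, Jak1 and Jak2, each lower in the KI), and for 43.9% of tested genes. The count of genes called in this comparison rested on single libraries and reached 483 without the first untreated wild-type library.

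The difference between genotypes in the LPS response itself was tested as an interaction, the LPS change in the KI minus that in wild type. For 5 of the 7 receptor and kinase genes it was below 0 and called, where 31.8% of tested genes were called in that direction and 63.7% in either. It was -4.93 for Ifnb1, given as a description because Ifnb1 entered the test only through wild type with LPS. It was -2.24 for Jak2 (limma adjusted p = 2.29e-17), -1.09 for Ifngr1 (2.84e-13), -0.72 for Ifnar1 (2.45e-08), -0.41 for Tyk2 (0.000328) and -0.32 for Jak1 (0.000223). For Ifnar2 it was -0.032 (95% interval -0.18 to 0.11) and for Ifngr2 -0.0027 (-0.14 to 0.14), with limma adjusted p of 0.711 and 0.975. Under quantile normalization it was 0.33 for Ifnar2 (adjusted p = 0.000369), 0.25 for Ifngr2 (adjusted p = 0.00232) and 0.059 for Jak1 (adjusted p = 0.460), with smaller but still called values for Ifnar1 (-0.47) and Tyk2 (-0.23).

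Ratios of members within a library do not change when a library is scaled by a single factor, though quantile normalization can change them. They are not corrected for gene length, so only their change between groups is read. Ifnar2 over Ifnar1 was 1.99 and 2.11 in KI cells with LPS, 1.19 and 1.24 in wild type with LPS, 1.37 and 1.50 in untreated KI cells and 1.38 and 1.36 in untreated wild type. Ifngr1 over Ifngr2 was 1.04 and 1.05 in KI cells with LPS, 2.14 in both wild-type libraries with LPS, 1.54 and 1.52 in untreated KI cells and 1.44 and 1.48 in untreated wild type. In both receptors the LPS groups thus lay on opposite sides of the untreated groups. Jak2 over Jak1 was 0.218 in both KI libraries with LPS, 0.855 and 0.926 in wild type with LPS, 0.186 and 0.183 in untreated KI cells and 0.190 and 0.202 in untreated wild type. With 2 libraries against 2, an exact permutation test of a single ratio cannot go below p = 0.333, so no test is given.

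**Figure D3:**
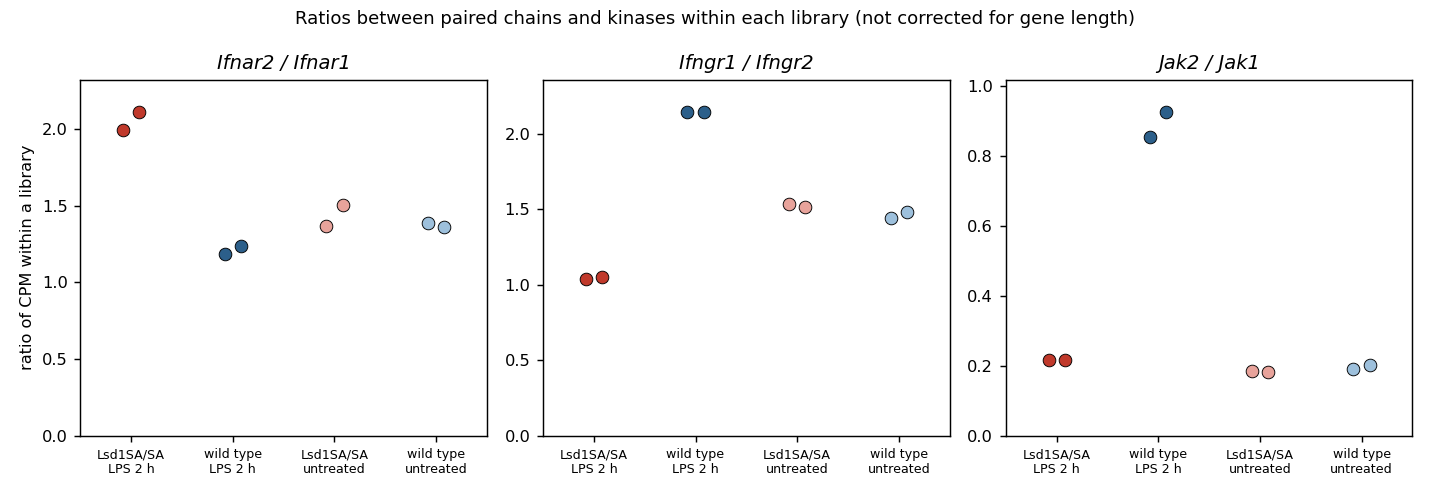
Ratio of CPM between the paired chains or kinases within each library (vertical axes, linear, from 0; 1 point a library). Ifnar2 over Ifnar1 is highest in KI cells with LPS (1.99 and 2.11), whereas Ifngr1 over Ifngr2 (2.14) and Jak2 over Jak1 (0.855 and 0.926) are highest in wild type with LPS.

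Among 21 genes of the route from TLR4 to Ifnb1, 14 rose and 1 fell with LPS in KI cells, and 14 rose and 6 fell in wild type. The median log2 change was 0.23 in KI cells and 0.41 in wild type. Among all tested genes, 28.5% rose and 28.3% fell with LPS in KI cells, and 26.8% rose and 30.7% fell in wild type. These shares apply to the LPS counts of every list and marker set here. Cd14, the LPS co-receptor, had 67.3 and 65.1 CPM in KI cells with LPS, 1348 and 1421 in wild type with LPS, 136 and 130.2 in untreated KI cells and 133 and 126 in untreated wild type. It fell by 1.00 (log2) in KI cells (limma adjusted p = 1.39e-14) and rose by 3.41 in wild type (adjusted p = 8.22e-26). The NF-kB subunit gene Nfkb1 changed by -0.12 in KI cells (adjusted p = 0.0536) and rose by 2.16 in wild type (adjusted p = 4.86e-21). Rela, another subunit gene, rose by 0.24 in KI cells and 1.90 in wild type. Tank, a TBK1 adaptor, rose in both genotypes, by 0.95 in KI cells and 2.10 in wild type. Irf7, an interferon regulatory factor that is itself interferon-responsive, rose by 1.34 in KI cells and fell by 0.24 in wild type. In the interaction, 8 of the 21 were called higher and 10 lower, where 31.8% of tested genes were called in each direction.

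Transcription factor genes that act below the receptors were mixed. Stat2, which pairs with IRF9 after type I interferon, had 364 and 360 CPM in KI cells with LPS, 92.0 and 94.2 in wild type with LPS, 122 and 119 in untreated KI cells and 123 and 131 in untreated wild type. It was highest in KI cells with LPS and lowest in wild type with LPS, and the untreated groups did not overlap. Of 7 genes (Irf9 and the Stat genes analysed here), 4 rose and none fell with LPS in KI cells, led by Stat2 (1.58, limma adjusted p = 1.74e-18), Irf9 (0.77), Stat3 (0.58) and Stat6 (0.23). In wild type 3 rose and 1 fell, led by Stat5a (1.78) and with Stat2 falling by 0.44. Under quantile normalization 3 rose and 4 fell in wild type. The median log2 change was 0.23 in KI cells and 0.20 in wild type. The interaction was called higher for Stat2 (2.02) and Irf9 (0.77) and lower for Stat5a (-1.72).

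All 36 interferon-responsive genes rose with LPS in KI cells, with a median log2 change of 1.62. Ifnb1 had 24 and 32 reads in that group, and its part in these rises was not tested. In wild type 28 of the 36 rose and 2 fell, with a median of 0.68 (24 and 8 under quantile normalization). The list includes Irf7, Stat2, Irf9 and Usp18, which other lists here also hold. The largest KI changes were Ifit3 (3.23), Isg15 (3.07), Usp18 (3.06) and Ifit1 (2.97), and the largest wild-type changes were Cxcl10 (8.68), Gbp5 (6.28), Rsad2 (4.69) and Ifit1 (4.47). Ifit3, an antiviral RNA-binding protein, had 804 and 795 CPM in KI cells with LPS, 197 and 226 in wild type with LPS, 89.8 and 78.9 in untreated KI cells and 86.5 and 85.5 in untreated wild type. Cxcl10, a chemokine gene that NF-kB also drives, had 3.55 and 3.14 CPM in KI cells with LPS, 1037 and 1127 in wild type with LPS, 1.72 and 1.81 in untreated KI cells and 1.73 and 1.55 in untreated wild type. Between genotypes with LPS, 21 of the 36 were called higher and 14 lower in the KI, where 38.5% of tested genes were higher and 36.8% lower. Between untreated genotypes limma called none of the 36, and DESeq2 called Irf1 (0.19, adjusted p = 0.0427; named after its value was seen).

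Among 17 tested genes that restrain JAK signalling, 8 rose and 2 fell with LPS in KI cells and 10 rose and 3 fell in wild type (5 and 5 under quantile normalization). Socs3, a feedback inhibitor of JAK kinases, had 5.38 and 5.56 CPM in KI cells with LPS, 969 and 955 in wild type with LPS, 1.95 and 1.99 in untreated KI cells and 2.19 and 2.43 in untreated wild type. It rose by 1.12 (log2) in KI cells and by 8.19 in wild type. Socs1, which inhibits the same kinases, rose by 1.24 in KI cells and 2.89 in wild type. Usp18, which binds IFNAR2 and blocks JAK1 there, was higher in KI than in wild-type cells with LPS, with 194.7 and 194.8 CPM in KI cells with LPS, 27.1 and 29.7 in wild type with LPS, 23.3 and 21.6 in untreated KI cells and 26.3 and 23.4 in untreated wild type. The interaction was -7.06 for Socs3 (limma adjusted p = 8.62e-24), -1.64 for Socs1 (5.42e-09) and 2.88 for Usp18 (6.02e-18).

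Other receptors that use JAK kinases were mixed. Of 21 tested genes (with Jak3), 10 rose and 8 fell with LPS in KI cells, and 9 rose and 6 fell in wild type (7 and 9 under quantile normalization). In KI cells the largest changes were in Il12rb1 (1.82), Lifr (-1.64), Epor (-1.52) and Il12rb2 (-1.05). In wild type they were in Il15ra (2.78), Il10ra (1.53), Il2rg (0.83) and Il4ra (0.73). Il10ra, a chain of the interleukin 10 receptor that carries JAK1, had 171 and 168 CPM in KI cells with LPS, 480 and 469 in wild type with LPS, 167 and 163 in untreated KI cells and 168 and 159 in untreated wild type. No gene of this list was called between untreated genotypes by limma, edgeR or DESeq2.

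Of 8 other genes beside Ifnar2, Ifnar1 and Ifngr2 on chromosome 16, 2 rose and 3 fell with LPS in KI cells, and 2 rose and 1 fell in wild type (1 and 5 under quantile normalization). Tested genes as a whole rose in 28.5% and fell in 28.3% of cases in the KI, and in 26.8% and 30.7% in wild type. Il10rb, which lies between Ifnar2 and Ifnar1 and encodes an interleukin 10 receptor chain, had 380 and 365 CPM in KI cells with LPS, 315 and 327 in wild type with LPS, 323 and 325 in untreated KI cells and 320.5 and 326 in untreated wild type. It rose by 0.20 in KI cells (limma adjusted p = 0.000620), and its wild-type change was -0.0090 (adjusted p = 0.880; under quantile normalization -0.42, adjusted p = 4.30e-08). Of the 8 neighbours, Donson alone was called, like Ifnar1, lower with LPS in KI cells (-0.40) and higher in wild type (0.39).

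**Figure D4:**
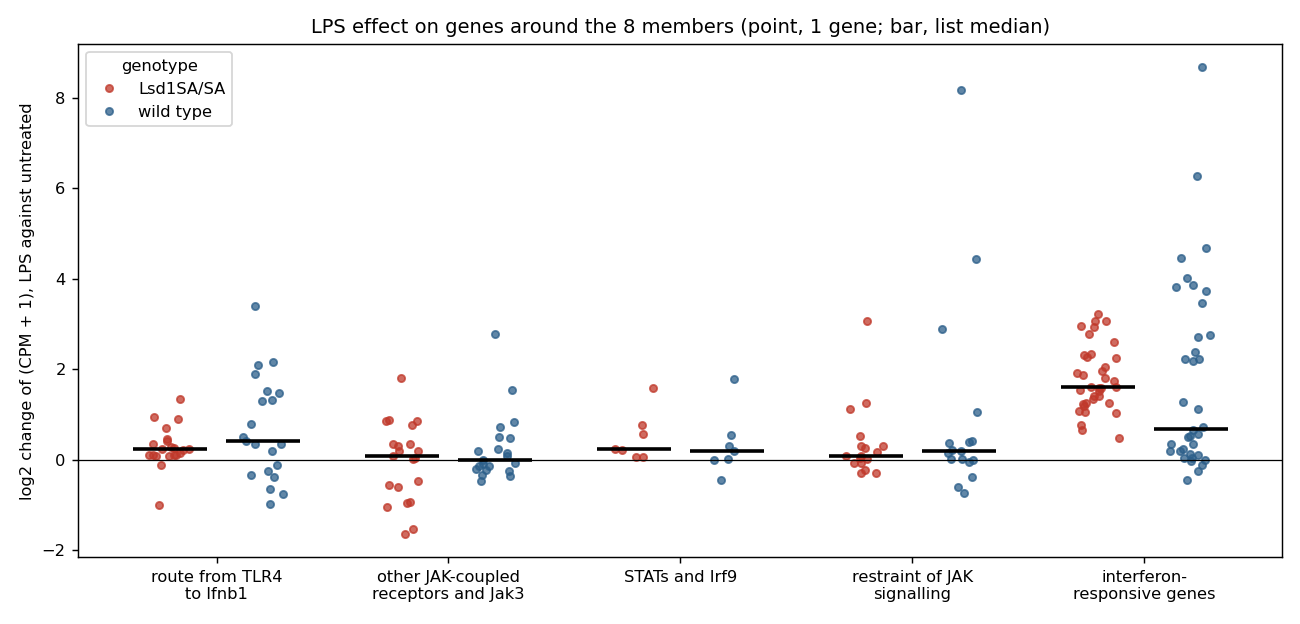
Limma log2 change of log2(CPM + 1) with LPS (vertical axis) for each tested gene (points) of 5 lists around the members, KI left of wild type in each, with a bar at the list median. All points of the interferon-responsive list are above 0 in the KI, where its median is 1.62, while in wild type the points spread up to 8.68 with a median of 0.68.

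Genes with the profile nearest to each member over the 8 libraries were found among 9638 named genes, by the root-mean-square difference of centred log2(CPM + 1). Nearest to Ifnb1 were Tnfaip3 (0.0496), Nlrp3 (0.175), Cd40 (0.182), Tnfsf4 (0.196) and Ccrn4l (0.207). Tnfaip3, which encodes the NF-kB inhibitor A20, had mean levels of 69.1 CPM in KI cells with LPS, 2126 in wild type with LPS, 49.7 in untreated KI cells and 48.1 in untreated wild type. Nearest to Jak2 were Lipg (0.0660) and Dusp16 (0.0673), and nearest to Ifngr1 were Mtpn (0.0280) and Chd4 (0.0340). For Ifnar1 they were Smarca5 (0.0277) and Rnpc3 (0.0459), for Ifnar2 Slmo2 (0.0224) and Kcmf1 (0.0272), and for Ifngr2 Fbxo38 (0.0240) and Stat6 (0.0271). For Jak1 they were Tgoln1 (0.0206) and Mat2a (0.0229), and for Tyk2 BC005764 (0.0444) and Csf1r (0.0573). These are descriptions of likeness over 8 libraries that share 4 groups. The scale understates changes of low genes, so a near profile need not be a like fold change. In KI cells Ifnb1 rose with a read ratio of 25.2, while Tnfaip3 went from 49.7 to 69.1 CPM. Lipg, nearest to Jak2, was itself low, with means of 0.204 CPM in untreated wild type and 6.38 in wild type with LPS.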

How the data were processed

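RNA was sequenced from 8 macrophage libraries in 4 groups of 2. Per the submitters' processing notes, the authors used TopHat2 2.0.9, bedtools and edgeR with mm9; for the counting rule and strand, nothing is given in the sources used here. The values are a signal deposited per gene, with the form of TMM-scaled CPM: 100% of values above 0 were whole reads within 0.001 once divided by the worth of 1 read, with library factors from 0.866 to 1.07.

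The members and gene lists were chosen with earlier results of these data known. All 8 libraries entered one limma 3.58.1 model of 4 group means (R 4.3.3, eBayes with a variance trend, 4 residual and 19.1 prior degrees of freedom, 2-sided) on log2(CPM + 1). A gene was kept if 2 or more libraries had it at 1 CPM or above, which held for 11919 of 23366, and 5996 were at 0 in all libraries. Calls were Benjamini-Hochberg adjusted p under 0.05 over all tested genes, in each of 5 comparisons. Named list genes were up to 4 called genes with the largest change in a comparison, and the genes nearest in profile were the 5 for Ifnb1 and 2 for each other member. Il10rb, Kdm1a and the marker genes are given outside this rule, and 1 gene of the lists is not reported here. The self-test used simulated data. Replicates did not agree within sampling noise, so none were merged in the model. The Ifnb1 read ratios alone pool the 2 libraries of a group, and their intervals leave out the spread between libraries.

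Alternatives were a pseudocount of 0.5, no filter or a filter at 5, quantile and median-of-ratios scaling, a robust trend, the compared groups alone, a replicate block, edgeR 4.0.16 and DESeq2 1.42.0 on recovered reads, and leaving out each library or both KI libraries with LPS. Floors and intervals cover counting error only. Of values of 1 to 20 reads, 71.1% were even, and if reads were counted in pairs, the intervals are too narrow. Promoters came from RefSeq on GRCm38.p6.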

Additional observations from a re-analysis of the deposited data

Results flagged for a closer look

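For 6 members the LPS response differed between genotypes by the interaction test (the LPS change in the KI minus that in wild type, limma with Benjamini-Hochberg adjustment, 2 libraries a group). Ifnb1 passed the filter on low values only through wild type with LPS, so its difference is a description and not support. On the log2(CPM + 1) scale the difference was -4.93 for Ifnb1 and -2.24 for Jak2, both of which rose in each genotype and less in the KI. It was -1.09 for Ifngr1 and -0.72 for Ifnar1, which fell in the KI and rose in wild type. The Ifnar1 fall in the KI (-0.15) lost its call with no filter on low values and on leaving out some single libraries. The difference between genotypes was -0.41 for Tyk2 and -0.32 for Jak1, which were called in wild type alone. The KI libraries with LPS carry male transcripts and the other 6 libraries female ones, so these differences cannot be told apart from the sex or source of the cells.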

How the results depend on the processing

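Leaving out both KI libraries with LPS kept all 8 members called higher with LPS in wild type (6758 genes called). Untreated genotypes, with 1 gene called, gave 0 with no filter, 18 with a robust trend, 64 with DESeq2, 2 without both KI libraries with LPS, and 1 to 483 on leaving out 1 library. Counts in the other 4 comparisons stayed within 1.5 times. Quantile normalization reversed member changes: with LPS in KI cells Jak1 (-0.013); with LPS in wild type Ifnar2 (-0.038), Ifngr2 (-0.076) and Jak1 (-0.071); between genotypes with LPS Ifnar2 (0.29) and Ifngr2 (0.18); untreated Ifngr1 (-0.012); in the interaction Ifnar2 (0.33), Ifngr2 (0.25) and Jak1 (0.059). The cause was not tested. The untreated Ifngr1 difference was -0.0033 with median-of-ratios scaling and -0.0044 with DESeq2. Leaving out 1 library gave ranges that reached or crossed 0 for uncalled changes: Tyk2 with LPS in KI cells (-0.11 to 0.066), untreated Ifnb1 (0 to 0.065), Ifnar2 (-0.088 to 0.028), Ifngr1 (-0.0036 to 0.0043) and Tyk2 (-0.059 to 0.11), and the interaction of Ifnar2 (-0.090 to 0.027) and Ifngr2 (-0.035 to 0.030). With a replicate block the counts were 6857 for LPS in wild type, 6736 for LPS in KI cells, 1 untreated, 8962 between genotypes with LPS and 7582 for the interaction, and no member call changed. Same-numbered libraries correlated at -0.0998 to 0.119 in their deviations from group means, so the numbers were not taken as pairing. Ifnb1 was not tested without either wild-type library with LPS, and the interaction could not be fitted on fewer than 4 groups. With 2 libraries a group, small differences such as those of untreated cells were limited by replicate spread, and Ifnb1 in KI cells by 56 reads.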
